A study of Mus musculus with 4 samples.

Results

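The nuclear hormone receptors are transcription factors that bind small lipid-soluble ligands, among them retinoids, vitamin D, oxysterols, thyroid hormone and steroids. The genes described here are 36 receptors of this superfamily, chosen by symbol from a fixed list that leaves out the ROR receptors. They are 36 of the 50600 genes in the deposited tables, and each symbol was found there. The study measured RNA in mouse T helper 17 (Th17) cells, the helper lineage of CD4+ lymphocytes named for its IL-17. There was 1 group of 4 libraries, all from primary Th17 cells of strain C57BL/6NJ under 1 donor label, with no genotype change or treatment named beyond a linked protocol for differentiating CD4+ T cells. Age is given as unknown, sex was not collected, and a time of 48 hours stands only in a file header. No label says that the libraries came from separate animals or cultures, so every p-value below speaks only for these samples. Part of the spread between them may be technical. With no second condition, the comparisons set receptors side by side within a library and libraries side by side for each receptor.

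Most of these receptors work in one of a few ways. Retinoic acid, vitamin D, thyroid hormone, fatty acid and oxysterol receptors sit on DNA as heterodimers with a retinoid X receptor (RXR), where corepressors are exchanged for coactivators when ligand binds. Steroid receptors such as the glucocorticoid receptor wait in the cytoplasm with heat shock protein chaperones and act in the nucleus, and the orphan receptors act without a known hormone. In CD4+ T cells retinoic acid and glucocorticoids are well-known modulators of helper cell differentiation.

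The libraries held 28555677 to 58104663 counts, and 10223 of 21764 protein-coding genes (47.0%) were detected, that is, were at or above 1 TPM in each of the 4 libraries. TPM is the count per base of exon, scaled so that each library has the same sum. The labelled cell type was checked against its markers, and all 8 CD4 and Th17 markers were detected. Il17f was at 11569 ± 117 TPM and Il17a at 4436 ± 179 TPM, the T cell receptor constant chain Trac at 839.6 ± 31.5 TPM and Cd4 at 345.8 ± 16.1 TPM (SD, n = 4). None of 14 markers of other cells was detected in every library, 5 of them had no count, and their summed level ran between 1.43 and 2.59 TPM. The highest of them were Itgax of dendritic cells (0.689 ± 0.279 TPM), Csf1r of macrophages (0.580 ± 0.243 TPM), Epcam of epithelium (0.495 ± 0.176 TPM) and Col1a1 of fibroblasts (0.155 ± 0.0574 TPM). The libraries split on sex-linked genes: replicates 1, 2, 3 and 4 had 132.2, 131.3, 0.329 and 0.496 TPM of Xist, and 0.282, 0.239, 65.5 and 58.4 TPM of the Y-linked Eif2s3y. Replicates 1 and 2 thus stood apart from replicates 3 and 4, which were also the more deeply sequenced pair. This split goes against a single donor animal behind the shared donor label, and which animals gave which library is not in the labels. Sex, depth and source cannot be told apart between these pairs of libraries.

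Of the 36 receptors, 14 were detected, beside 47.0% of all protein-coding genes. A further 3 were counted in every library but stayed under 1 TPM, 7 had counts in some libraries only, and 12 had none. A gap separated the first class from the rest, since the lowest of the 14, Nr6a1, averaged 2.17 TPM and the highest of the others, Pparg, 0.587 TPM. Among the 22 below the threshold, 19 had a count of 0 in at least 1 library, which allowed a level of at most 0.0198 to 0.311 TPM there, depending on gene length and library. Such limits cover counting error only. Summed over all 36, the receptors reached 415.9 ± 6.59 TPM (SD, n = 4), and the 5 highest, Rxrb, Rara, Nr1h2, Rxra and Vdr, held 67.3% of that sum. In bulk RNA a low level cannot be told apart between few cells that express a gene and little RNA in each cell.

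**Figure D1:**
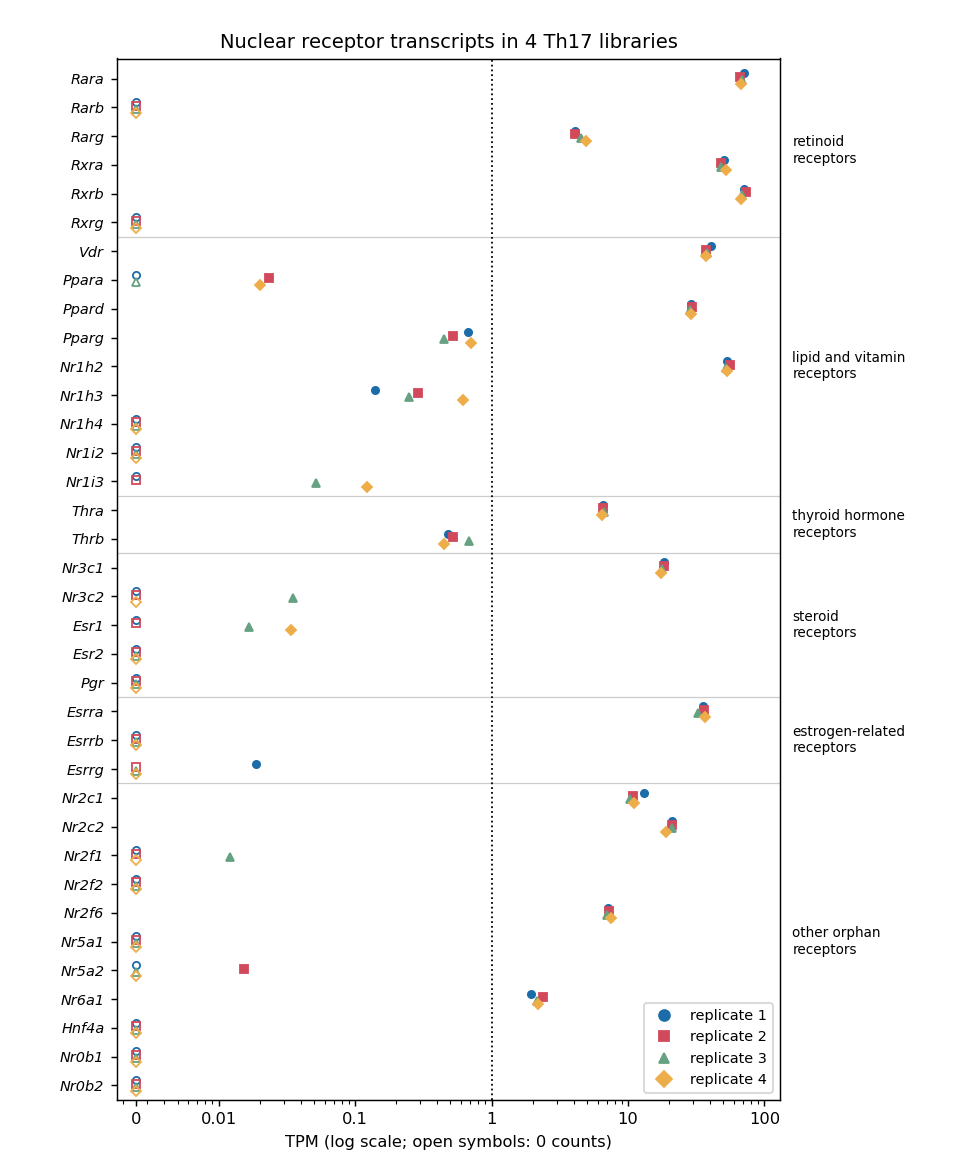
TPM of each of the 36 receptors in each of the 4 libraries (log axis, open symbols at 0 counts), grouped by ligand class, with a dotted line at 1 TPM. The 14 receptors right of the line sit between 1.95 and 73.1 TPM, and no receptor left of it passes 0.707 TPM in any library.

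The retinoid receptors were the most abundant class, with 192.4 ± 2.22 TPM summed over 6 genes, or 46.3% of all receptor TPM. Rxrb, a retinoid X receptor that partners the ligand-binding receptors (chr17:34031812-34038393, plus strand, mm10), had 70.6, 73.1, 68.7 and 67.6 TPM in replicates 1, 2, 3 and 4. Rara, the retinoic acid receptor that carries most retinoid signalling in T cells (chr11:98927818-98974942, plus strand), had 70.4, 66.7, 68.4 and 67.8 TPM. These ranges overlapped: Rxrb was the higher in 3 of 4 libraries, so their order was not resolved. Rxra, another retinoid X receptor (chr2:27676440-27762957, plus strand), had 50.3, 48.2, 48.4 and 51.9 TPM. Rarg, the retinoic acid receptor prominent in skin and cartilage, was far lower, at 4.11, 4.09, 4.54 and 4.89 TPM. Rarb and Rxrg, the remaining members of each trio, had no count in any library.

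Within each library Rara exceeded Rarg by 3.93 ± 0.13 on the log2(TPM + 0.1) scale, which is 15.3-fold on pooled counts per length. Rara also exceeded Rxra, by 0.46 ± 0.05, and Rxrb exceeded Rxra, by 0.49 ± 0.09 (SD, n = 4 each). All 3 orders held in 4 of 4 libraries. The exact two-sided sign-flip permutation test gave a p of 2 in 16 for each, and for every pair below, before and after Benjamini-Hochberg adjustment over the 14 pairs tested. That is the smallest p that the 16 sign patterns of 4 libraries allow, so no pair could pass 0.05. The order of Rxrb and Rxra rested on gene length: in CPM, which does not divide by length, the difference was -0.07.

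Rarb and Cyp26a1, which codes for an enzyme that degrades retinoic acid, are textbook retinoic acid targets, and their promoters hold the direct repeat for which such elements are known. Windows of receptors, pathway genes and cell type markers were searched, 201 in all. The 100 bases before the start are shown because only these 2 windows had that repeat at a spacing of 5 bases. They are RefSeq sequences of GRCm38.p6, chr14:16575477-16575576 on the minus strand and chr19:37697708-37697807 on the plus strand, written along the gene, with capitals for the repeat.
Rarb: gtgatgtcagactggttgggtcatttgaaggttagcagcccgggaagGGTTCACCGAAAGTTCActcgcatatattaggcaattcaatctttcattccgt
Cyp26a1: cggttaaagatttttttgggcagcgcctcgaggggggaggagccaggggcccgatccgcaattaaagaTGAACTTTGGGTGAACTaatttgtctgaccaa
The search took any of the hexamers AGGTCA or AGTTCA or GGGTCA or GGTTCA, followed by any of them in the same direction after 1 to 5 bases, on both strands of each 300-base window. In Rarb the repeat lay at positions -53 to -37 from the start on the gene strand, and in Cyp26a1 at -32 to -16 on the opposite strand. Of 32851 RefSeq windows of that length, 32 (0.0974%) held the repeat with 5 bases between the hexamers. At spacings of 1, 2, 3 and 4 bases, 0 of the 201 windows held it. A match describes letters and not binding. Both genes were at or near 0: Rarb had no count, and Cyp26a1 had 0, 0.0509, 0.194 and 0.131 TPM in replicates 1, 2, 3 and 4.

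The promoters of the highest retinoid X receptor and of the one without counts differed in CG content, and both are shown for that reason. They are the 100 bases before the RefSeq start with the most CG pairs, chr17:34032250-34032349 for Rxrb and chr1:167618165-167618264 for Rxrg, both on the plus strand of GRCm38.p6, with CG pairs in capitals.
Rxrb: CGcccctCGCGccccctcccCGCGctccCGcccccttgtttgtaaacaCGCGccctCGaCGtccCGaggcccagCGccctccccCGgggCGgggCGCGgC
Rxrg: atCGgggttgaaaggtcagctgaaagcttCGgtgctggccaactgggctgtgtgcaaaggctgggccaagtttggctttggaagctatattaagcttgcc
The Rxrb stretch holds 16 CG pairs and the Rxrg stretch 2. For each gene the start with the most CG pairs in the 250 bases before it was taken. There the 12 detected receptors with a RefSeq entry held a median of 19 CG pairs (7 to 42). The 21 others held a median of 7 (1 to 38), beside a median of 6 over 27025 genes. The classes overlapped widely: Nr6a1 was detected with 7 pairs, while Pparg and Ppara had 38 and 27 pairs below the threshold. Another start of the same gene could hold far fewer: 1 in Rxra beside 40, 2 in Rara beside 13 and 2 in Pparg beside 38. Which start these cells use was not tested. Nr3c1, Thra and Nr5a1 were the 3 receptors outside this count.

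The lipid and vitamin receptors summed to 121.9 ± 1.91 TPM over 9 genes, and 3 of them carried nearly all of it. Nr1h2, the widely expressed liver X receptor for oxysterols (chr7:44549616-44553951, minus strand), had 53.3, 55.6, 52.2 and 53.6 TPM in replicates 1, 2, 3 and 4. Vdr, the vitamin D receptor (chr15:97854425-97910630, minus strand), had 40.5, 37.4, 37.9 and 37.5 TPM, with replicate 1 above the other 3. Ppard, the broadly expressed fatty acid receptor of the PPAR trio (chr17:28232754-28301469, plus strand), had 28.9, 29.3, 28.6 and 28.8 TPM. Its coefficient of variation of 1.08% was the lowest of the 14 receptors.

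Among the liver X receptors and the PPARs a single paralogue carried nearly all of the RNA. Nr1h3, the liver X receptor of liver and macrophages, had only 3, 8, 11 and 20 counts in replicates 1, 2, 3 and 4, or 0.140, 0.287, 0.250 and 0.615 TPM. Nr1h2 exceeded it by 7.11 ± 0.65 on the log2(TPM + 0.1) scale, a ratio of 160.3 on pooled counts per length (95% counting interval 119 to 223). Pparg, the receptor that drives fat cell differentiation, had 17, 17, 23 and 27 counts, or 0.675, 0.520, 0.445 and 0.707 TPM. Ppard exceeded Pparg by 5.42 ± 0.27, a ratio of 50.7 (40.9 to 63.7). Ppara, the fasting receptor of liver, had 1 count in each of replicates 2 and 4 and none in the others. The ratio of Ppard to it was 2768 (766 to 22859.9), a wide interval because it rests on 2 counts. These orders held in 4 of 4 libraries.

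Receptors of bile acids and foreign compounds were at or near 0. Nr1h4, the bile acid receptor, and Nr1i2, the pregnane X receptor, had no count. Nr1i3, the constitutive androstane receptor of liver, had 0, 0, 4 and 7 counts in replicates 1, 2, 3 and 4. Its counts stood only in the 2 most deeply sequenced libraries, which were also those with Eif2s3y. Its exons share 53.2% of their 100-base windows with Tomm40l, which is transcribed from the opposite strand of the same place, and counting was by strand.

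Thyroid hormone receptors were low, at 7.07 ± 0.20 TPM in sum. Thra, the thyroid hormone receptor of most tissues (chr11:98740638-98769006, plus strand), had 6.53, 6.55, 6.64 and 6.40 TPM in replicates 1, 2, 3 and 4. Thrb, the form that governs feedback in liver and pituitary, had 0.483, 0.523, 0.689 and 0.448 TPM. Thra was higher in 4 of 4 libraries, by 3.40 ± 0.21 on the log2(TPM + 0.1) scale or 11.8-fold on pooled counts per length.

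Of the 5 steroid receptors, Nr3c1 alone was detected. Nr3c1 codes for the glucocorticoid receptor, the target of anti-inflammatory steroids, and had 18.2, 18.3, 17.7 and 17.4 TPM in replicates 1, 2, 3 and 4. Replicates 1 and 2 lay above replicates 3 and 4 by less than 1 TPM. Among the detected receptors Rxrb, Ppard and Nr2c2 had the same order, and Rarg had the opposite order. Nr3c2, the mineralocorticoid receptor that binds the same corticosteroids, had 4 counts in replicate 3 and none elsewhere. Esr1, the estrogen receptor alpha, had 0, 0, 4 and 6 counts, again in replicates 3 and 4 only. Esr2 and Pgr, the estrogen receptor beta and the progesterone receptor, had no count.

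On pooled counts per length, Nr3c1 stood 1445-fold above Nr3c2 (95% counting interval 564 to 5306) and 1219.8-fold above Esr1 (663 to 2545). Set against Rora, a ROR receptor of Th17 cells, Nr3c1 was lower in 4 of 4 libraries, by -1.29 ± 0.05 on the log2(TPM + 0.1) scale, with 17.9 ± 0.448 TPM against 43.9 ± 1.75 TPM for Rora. Esr1 and Esr2 were both at or under the limit of detection in at least 2 libraries, and no ratio is given for them.

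Among the estrogen-related receptors, which bind related DNA sites but no estrogen, only Esrra was detected. It had 35.7, 36.3, 32.6 and 37.0 TPM in replicates 1, 2, 3 and 4 (chr19:6910977-6921813, minus strand), lowest in replicate 3. Esrra works with PGC-1 coactivators on mitochondrial genes. Esrrg, the form of heart and muscle, had 1 count in replicate 1, which put Esrra above it by a ratio of 10895 with an interval of 1954 to 430432. Esrrb, a factor of pluripotent cells, had no count. Of the exon length of Esrra, 3.58% overlaps the microRNA gene Mir6990 on the same strand, where fragments could go uncounted.

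The 11 other orphan receptors summed to 41.3 ± 1.52 TPM. Nr2c2, the testicular receptor TR4 (chr6:92091390-92174294, plus strand), had 21.1, 20.9, 20.9 and 19.0 TPM in replicates 1, 2, 3 and 4, lowest in replicate 4. Nr2c1, its paralogue and partner TR2 (chr10:94148023-94197211, plus strand), had 13.1, 10.8, 10.4 and 11.1 TPM, highest in replicate 1. Nr2c1 was lower than Nr2c2 in 4 of 4 libraries, by -0.85 ± 0.14 on the log2(TPM + 0.1) scale. The level of Nr2c2 leaned on the gene model: it averaged 20.5 TPM over the deposited exon length of 14935 bases and 29.1 TPM over the longest transcript of 7647 bases. Of its 100-base windows, 28.3% also stand in Mrps25 on the opposite strand or in the pseudogene Gm42933 on another chromosome. Counting was by strand, so fragments shared with Gm42933 could go uncounted, and their share was not separated from that of Mrps25. Nr2f6, a COUP-family receptor known to restrain IL-17 production in mouse CD4+ T cells (chr8:71374123-71381960, minus strand), had 7.19, 7.23, 7.07 and 7.51 TPM, with all 4 libraries close together. Nr6a1, the germ cell nuclear factor, had 1.95, 2.37, 2.16 and 2.18 TPM.

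The remaining orphans had next to no reads. Nr2f1 had 1 count in replicate 3 and Nr2f2 none. Both are COUP factors of mesenchyme and nervous system, and Nr2f6 stood at least 176-fold to at least 356-fold above Nr2f2, by library, with the floor of 3 counts per library in place of 0. Nr5a2, a receptor of liver and pancreas, had 1 count in replicate 2. Nr5a1, which directs adrenal and gonadal steroid synthesis, Hnf4a, a liver and gut factor, and Nr0b1 and Nr0b2, receptors without a DNA-binding domain, had none. No ratio is given for Nr5a2 over Nr5a1.

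**Figure D2:**
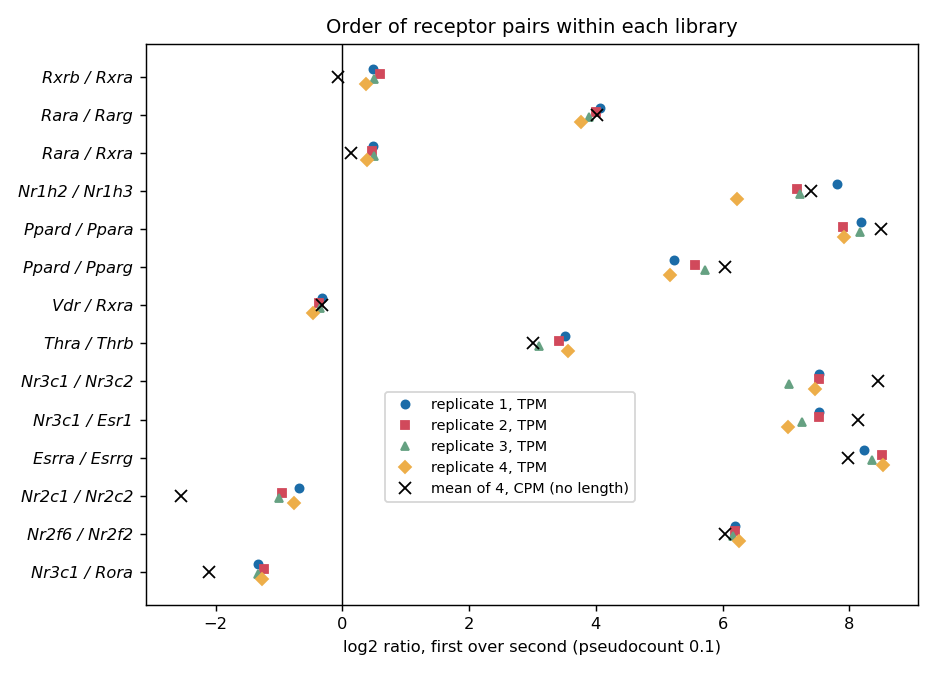
Log2 ratio of the first over the second gene of 14 pairs in each library (coloured symbols, TPM with a pseudocount of 0.1), with the mean in CPM as a cross. The first gene was higher in all 4 libraries in 11 pairs and lower in 3; the cross for Rxrb over Rxra lies at -0.07, left of 0.

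Ordered by mean TPM, the 14 detected receptors ran Rxrb, Rara, Nr1h2, Rxra, Vdr, Esrra, Ppard, Nr2c2, Nr3c1, Nr2c1, Nr2f6, Thra, Rarg and Nr6a1. Of the 13 neighbouring pairs in this order, 12 had ranges over the libraries that did not overlap, and only those of Rxrb and Rara did. Some gaps were narrow: the lowest Nr1h2 value was 52.2 TPM and the highest Rxra value 51.9 TPM, and the lowest Vdr value 37.4 TPM and the highest Esrra value 37.0 TPM. The order also rested on the length used. With the longest transcript as the length, 3 neighbouring pairs turned round: Nr1h2 passed Rara (65.4 against 64.0 TPM), Ppard passed Esrra (29.6 against 29.1 TPM) and Thra passed Nr2f6 (8.92 against 7.08 TPM).

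Summed RXR transcripts were fewer than those of 14 listed partner receptors. Rxra, Rxrb and Rxrg summed to 120.9, 121.4, 117.0 and 119.4 TPM in replicates 1, 2, 3 and 4, against 205.0, 201.1, 199.7 and 200.8 TPM for the 14 listed partners. The partners were the retinoic acid, vitamin D, PPAR, liver X, bile acid, xenobiotic and thyroid hormone receptors. The ratio was 0.594 ± 0.00755 (SD, n = 4), below 1 in 4 of 4 libraries, and its log2 was -0.75 ± 0.02 (exact two-sided sign-flip permutation test, 2 of 16 sign patterns as extreme, the fewest possible). It is a ratio of RNA levels, depends on which partners are listed, and says nothing of protein.

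The spread of the receptors between libraries was near that of other genes. The coefficient of variation of the 14 detected receptors had a median of 3.48% (1.08% for Ppard to 10.4% for Nr2c1), beside 4.14% over all 10223 detected protein-coding genes. Of the 36, 16 had enough counts for the test of variation, which covered 12434 genes, and 20 did not. None of the 16 varied between libraries by the Poisson deviance test on edgeR-scaled counts with a highest level at least 2 times the lowest, against 1.74% of all genes. Without that ratio 4 passed, against 36.6% of all genes, at an adjusted p (Benjamini-Hochberg) of 0.000301 for Nr2c2, 0.00911 for Nr2c1, 0.0131 for Rxra and 0.0231 for Esrra. Their highest and lowest libraries differed by 1.10-fold in Nr2c2, 1.23-fold in Nr2c1, 1.08-fold in Rxra and 1.14-fold in Esrra. At an unadjusted p under 0.05 the Poisson test had 5 of these 16 receptors. The share of all genes at that threshold was not counted, but it is at least the 36.6% that passed after adjustment. By the stricter test, a negative binomial deviance at edgeR's trended dispersion, 0 receptors passed, against 0.523% of all genes, and 0 had an unadjusted p under 0.05, against 4.48% of all genes. With 16 receptors tested, counts of 0 are no contrast with these shares, and the medians above were not matched for level.

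**Figure D3:**
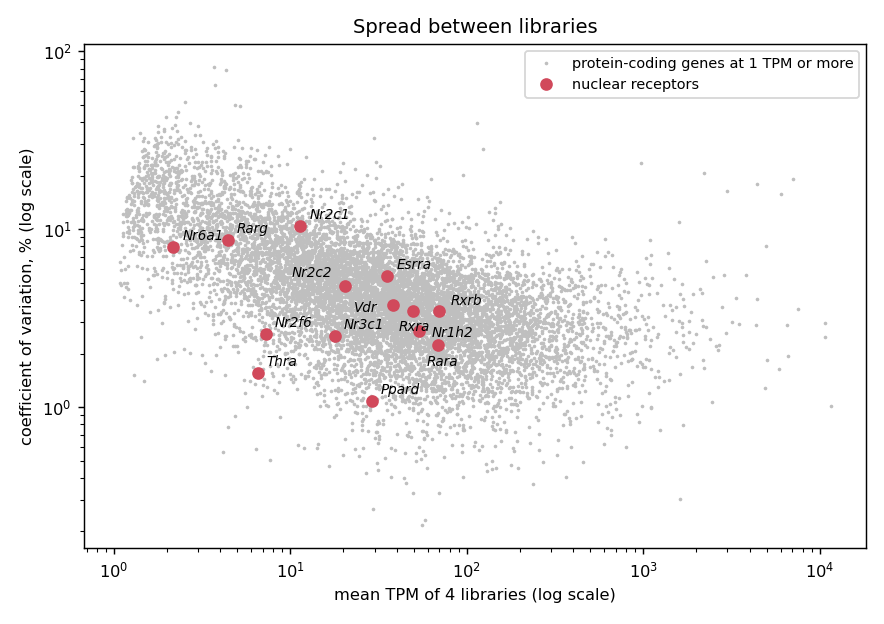
Coefficient of variation over the 4 libraries against mean TPM (both log axes) for the 10223 detected protein-coding genes (grey) and the 14 receptors among them (red). The receptors lie within the grey cloud, between 1.08% for Ppard and 10.4% for Nr2c1.

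Other receptors of the superfamily give the scale. Of 12 outside the list 7 were detected, among them the activation-induced Nr4a1 at 175.8 ± 13.5 TPM. Rora, at 43.9 ± 1.75 TPM, and Nr4a2, at 16.2 ± 0.854 TPM, fell among the levels of the 14. Nr4a1 was above every receptor described here, in every library: its lowest value was 158.9 TPM and the highest of theirs 73.1 TPM.

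The cofactors that receptors recruit were present almost throughout. Of 14 coactivators 13 were detected, led by the arginine methyltransferases Prmt1 (381.6 ± 11.3 TPM) and Carm1 (112.3 ± 3.78 TPM), with the PGC-1 relative Pprc1 (120.0 ± 1.89 TPM) and the p160 coactivator Ncoa3 (87.2 ± 1.00 TPM). The exception was Ppargc1a, the PGC-1 coactivator of muscle and brown fat, which had no count. Of 10 corepressors 9 were detected, among them Ncor1 at 108.8 ± 2.25 TPM and its complex partners Gps2 (83.3 ± 2.75 TPM) and Hdac3 (80.4 ± 1.87 TPM). Sin3a, a scaffold for histone deacetylases, was at 70.8 ± 1.60 TPM. All 10 steroid receptor chaperones were detected, with Hsp90ab1 at 6528 ± 189 TPM, Hspa8 at 2217 ± 36.5 TPM, Hsp90aa1 at 1209 ± 31.2 TPM and Stip1 at 804.7 ± 19.8 TPM. These shares stand beside 47.0% of all protein-coding genes.

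Genes that make or clear the ligands mostly fell short of 1 TPM in at least 1 library, while 47.0% of all protein-coding genes were detected. Of 18 synthesis and activation genes 4 were detected: Cyp11a1, the enzyme that starts steroid synthesis from cholesterol, Rdh10, which makes retinal, Dio2, which activates thyroid hormone, and Hsd11b1, which regenerates active glucocorticoid. Cyp11a1 was the highest, at 29.5 ± 4.81 TPM, followed by Rdh10 at 9.505 ± 0.310 TPM. Dio2 averaged 2.02 ± 0.479 TPM and Hsd11b1 1.94 ± 0.234 TPM. Falling short is not absence: Ch25h of this list averaged 1.43 TPM and was under 1 TPM only in replicate 1 (0.955 TPM). Of 9 breakdown genes, only Sult2b1, a cholesterol sulfotransferase, was detected, at 1.13 ± 0.12 TPM. Dhrs3 averaged 0.393 ± 0.0936 TPM and Cyp26b1 0.112 ± 0.0953 TPM. For all 4 detected synthesis genes and Sult2b1, replicates 1 and 2 lay above replicates 3 and 4 without overlap, along the split seen in Xist. The same held for genes of other lists, among them Slc16a10, Fkbp5, Sgk1 and the Th17 marker Ccr6. It also held for Itgax and Csf1r among the markers of other cells, while the macrophage marker Lyz2 had no count. Epcam did not follow it (0.689, 0.398, 0.589 and 0.303 TPM in replicates 1, 2, 3 and 4). The opposite order stood in Col1a1 (0.179, 0.0688, 0.183 and 0.188 TPM) and in the retinoic acid target Itga4 (2.25, 2.29, 2.73 and 3.00 TPM). How many of all genes had either order was not counted, and the part of other cells in these levels was not tested.

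Of 10 carrier and uptake genes 4 were detected. Fabp5, which passes fatty acids to Ppard, was at 109.9 ± 4.73 TPM, and Slc16a10, a transporter of aromatic amino acids and thyroid hormone, at 61.4 ± 4.57 TPM. Crabp2, which delivers retinoic acid to its receptors, averaged 51.6 ± 4.62 TPM, and Stra6, the membrane receptor for retinol-binding protein, 6.59 ± 1.39 TPM. The first 3 of these carriers were thus at levels like those of the highest receptors or above them.

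**Figure D4:**
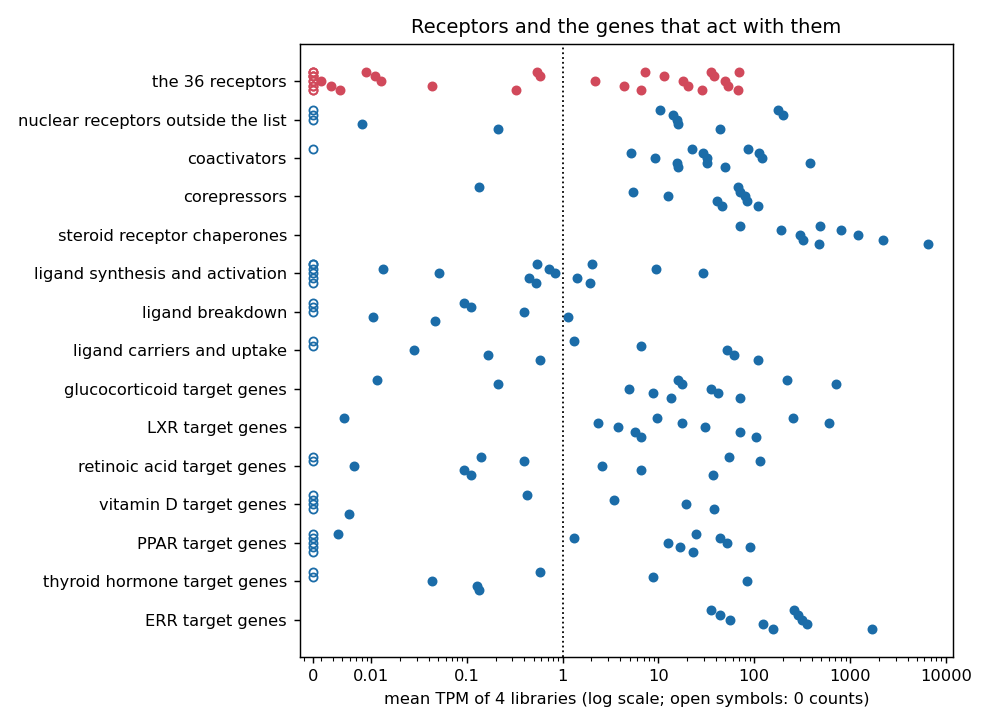
Mean TPM (log axis, open symbols at 0 counts) of the 36 receptors in red, and in blue of the genes of each pathway list, 1 point per gene, with a dotted line at 1 TPM. All chaperones and ERR targets sit right of the line, while 14 of 18 ligand synthesis genes and 8 of 9 ligand breakdown genes were not detected in every library.

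Known target genes of each receptor class were read as levels only, since without a treatment they do not report receptor activity. Their detected shares stand beside 47.0% of all protein-coding genes. Of 12 liver X receptor targets 11 were detected, with the desaturase Scd2 at 610.7 ± 54.1 TPM, Fasn at 252.5 ± 8.28 TPM, Srebf1 at 104.0 ± 5.34 TPM and Lpcat3 at 71.0 ± 1.42 TPM. All 10 targets of the estrogen-related receptors were detected, 1 of them Esrra itself. They include the ATP synthase subunit Atp5b (1684 ± 13.3 TPM), Uqcrc2 (358.2 ± 3.29 TPM) and Sdha (285.6 ± 4.45 TPM), which most cells express.

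Glucocorticoid target genes were detected in 10 of 12 cases, beside 47.0% of all protein-coding genes. Anxa1 (0.213 ± 0.135 TPM) and Zbtb16 (0.0116 ± 0.0143 TPM) were not detected. Nfkbia, the inhibitor of NF-κB, was at 716.3 ± 34.6 TPM, and Ddit4, an mTOR inhibitor, at 220.9 ± 16.1 TPM. Fkbp5, a chaperone of the glucocorticoid receptor, averaged 70.9 ± 4.82 TPM and Zfp36 42.2 ± 0.960 TPM. Sgk1, a kinase that glucocorticoid induces in many tissues, is shown by a stretch of its promoter because it was the only one of the 201 windows with the palindrome GAACANNNTGTTC, searched on both strands, which 19 of 32851 RefSeq windows (0.0578%) hold. The stretch covers positions -228 to -129 from the start, chr10:21993662-21993761 on the plus strand of GRCm38.p6 (RefSeq), with the palindrome at -188 to -176 in capitals.
Sgk1: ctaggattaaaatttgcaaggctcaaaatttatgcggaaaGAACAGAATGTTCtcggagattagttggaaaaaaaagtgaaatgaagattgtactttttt

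Retinoic acid, vitamin D, thyroid hormone and PPAR targets were detected in part, beside 47.0% of all protein-coding genes. Of 12 retinoic acid targets 5 were detected: Tgm2, a transglutaminase, at 115.2 ± 5.80 TPM, the integrin chains Itgb7 at 54.2 ± 2.27 TPM and Itga4, Rai1 at 36.8 ± 1.27 TPM and Stra6. Of 9 vitamin D targets 3 were detected, 1 of them Vdr itself, with Slc37a2 at 19.6 ± 2.92 TPM and Spp1 at 3.45 ± 0.336 TPM, while Cd14 averaged 0.429 ± 0.199 TPM. Cyp24a1, the vitamin D hydroxylase that is its classical target, had no count. Of 8 thyroid hormone targets 2 were detected, Bcl3 at 84.9 ± 2.60 TPM and Klf9 at 8.80 ± 1.23 TPM, while the corepressor Hr averaged 0.136 ± 0.0324 TPM. Of 14 PPAR targets 7 were detected, led by the fatty acid oxidation genes Acadl (91.2 ± 3.09 TPM), Hadha (51.8 ± 0.716 TPM), Acadm (44.5 ± 1.78 TPM) and Cpt1a (24.9 ± 0.740 TPM).

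Of 98 pathway genes tested, 4 passed the stricter test of variation, beside 0.523% of all genes. With 16 receptors tested, a count of 0 among them is no contrast with this. Cyp11a1 had 31.6, 34.0, 29.8 and 22.8 TPM in replicates 1, 2, 3 and 4 (edgeR trended dispersion, Benjamini-Hochberg adjusted p = 0.0213). Sgk1 had 15.8, 19.5, 15.2 and 13.03 TPM (adjusted p = 0.0194). Both were highest in replicate 2 and lowest in replicate 4. Scd1, a stearoyl-CoA desaturase and liver X receptor target, had 28.2, 32.7, 23.7 and 37.5 TPM (adjusted p = 0.000259), and Stra6 6.65, 5.98, 5.25 and 8.50 TPM (adjusted p = 0.00868). These were highest in replicate 4 and lowest in replicate 3. Replicate 4 decided all 4 calls: without it the adjusted p was 1 for Cyp11a1, Sgk1 and Stra6 and 0.272 for Scd1. Stra6 was also lost without replicate 3 (0.531), and Sgk1 without replicate 2 (1) and without replicate 3 (0.274).

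**Figure D5:**
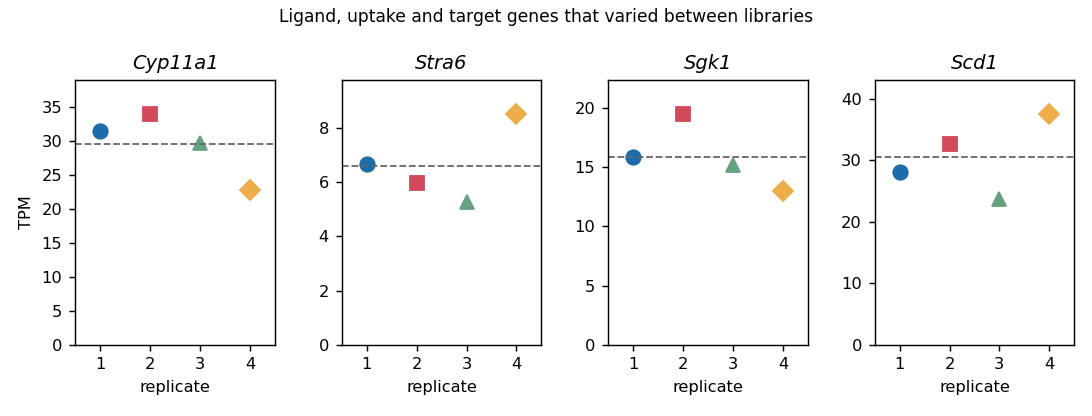
TPM of the 4 pathway genes called variable by the stricter test in each replicate, with the mean as a dashed line and each axis starting at 0. Cyp11a1 and Sgk1 are highest in replicate 2 and lowest in replicate 4, and Stra6 and Scd1 are highest in replicate 4 and lowest in replicate 3.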

How the data were processed

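Total RNA of 4 libraries of Th17 cells was sequenced as paired reads. The authors deposited raw fragment counts per gene, made per the file headers with featureCounts 1.4.6-p4 on GENCODE M13 gene models, with both ends mapped and strand option 2. Fragments on several places or several genes were not counted. The labels name build mm10, the assay title says total RNA while the linked library protocol names poly(A)+ RNA, and for the aligner the sources used here give no name.

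TPM and CPM were computed here from the deposited counts and exon lengths with Python 3.11.15 (numpy 2.4.6, pandas 2.3.3). Symbols came from GENCODE M21 and matched 50376 of 50600 genes. Levels are means ± SD of 4 libraries. Intervals are exact 95% counting intervals on pooled counts, which leave out the spread between libraries, and the floor is 3 counts. Of the 36 receptors, 8 share 100-base windows with other genes, 7 of them only with genes on the opposite strand of the same place, and Nr2c2 also with a pseudogene, Gm42933, on another chromosome. Nr1h3 shares 1.35% of its exon length on the same strand with Gm13783.

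Pairs were compared with an exact sign-flip permutation test (pseudocount 0.1 TPM). Variation was tested over all genes left by edgeR 4.0.16 filterByExpr (R 4.3.3; TMM factors 0.997 to 1.006, biological coefficient of variation 0.0535), by Poisson and by negative binomial deviance with Benjamini-Hochberg adjustment, and was tested on simulated data. DESeq2 1.42.0 size factors, other thresholds and lengths and each library left out were the alternatives. Named are all 36 receptors, the 4 highest genes of each pathway list, list genes called by the stricter test, and the listed pairs; some of these genes are not reported here. Ppargc1a, Cyp24a1, Itga4, Ch25h, Ccr6, Lyz2, Anxa1, Zbtb16, Xist and Eif2s3y were named after their values were seen. The receptors, lists and tests were chosen with earlier results of these data known. CG pairs and motifs were counted in RefSeq promoter windows.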

Additional observations from a re-analysis of the deposited data

Results flagged for a closer look

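Of 93 sets of 4 values (receptors, named pathway genes, pair ratios and sums), 5 had 1 library farther from its nearest neighbour, as a share of the whole range, than Dixon's 95% critical value for 4 samples, and chance gives about 1 in 20. Vdr was at 40.5 TPM in replicate 1, and at most 37.9 TPM in the other libraries. Nr2c2 was at 19.0 TPM in replicate 4, and at least 20.9 TPM in the others. The log2 ratio of Nr3c1 over Nr3c2 was 7.04 in replicate 3, the only library with counts of Nr3c2, and at least 7.45 in the others. The chaperone Stip1 was at 775.2 TPM in replicate 1, and at least 811.5 TPM in the others. The fibroblast marker Col1a1 was at 0.0688 TPM in replicate 2, and at least 0.179 TPM in the others.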

How the results depend on the processing

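The count of 14 detected receptors was the same at 0.5 TPM, at 1 CPM, by the mean, over the longest transcript and without each library, and was 12 at 5 TPM. Of 112 alternative values of the pairs, 111 kept their direction, and Rxrb over Rxra turned to -0.0689 in CPM, where 10 pairs had the first gene higher. The log2 ratio of RXR to partners stayed between -0.91 and -0.74. The count of receptors variable by the Poisson test was 4 with no ratio asked and 2 (Nr1i3 and Esr1, each under 10 counts in any library) with no filter on low counts, and 0 by the other alternatives, as was the stricter count in each of its alternatives. One of these, a gene-wise dispersion, says nothing of any gene: it takes the dispersion from the same 4 values, and 0 genes were called. The 4 pathway gene calls were kept in 16 of 24 other alternative values, and Sgk1 had an adjusted p of 0.116 by edgeR with no filter; the cause was not tested. No paired analysis was possible because there is a single group, with no second one to pair by replicate number; the gene pairs were compared within each library. Depth limits how low the 19 receptors with a count of 0 can be placed, but the floors of at most 0.311 TPM lie under the 1 TPM threshold.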
